A study of Mus musculus with 6 samples.

Results

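The genes described here are 40 genes of the unfolded protein response and the integrated stress response, measured by RNA sequencing in BV2 cells, an immortalised mouse microglial line. They were chosen by name, with earlier results of these data known, so that counts of calls among them describe the list and do not test it. They are the rows of a gene count table whose mouse Ensembl identifier carries the symbol of a listed gene. All 40 were among the 16371 genes tested, out of 55401 rows in the table, and each averaged at least 10 CPM (the usual unit of counts scaled to a common library size) over the libraries. The study has 2 groups, BV2 cells given vehicle (3 libraries, Vehicle 1 to 3) and BV2 cells given lipopolysaccharide (LPS, the outer-membrane glycolipid of Gram-negative bacteria that is sensed through Tlr4; 3 libraries, LPS 1 to 3). The labels give no genotype, dose, time of treatment or composition of the vehicle. Whether the 3 libraries within each group represent separate cultures is not stated, and p-values then measure only the spread between these samples, which may be technical. BV2 is a single transformed line, which limits it as a model of microglia in tissue.

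When unfolded proteins build up in the endoplasmic reticulum (ER), its membrane sensors, PERK (encoded by Eif2ak3), IRE1 (Ern1) and ATF6 (Atf6), start the unfolded protein response: IRE1 splices the Xbp1 mRNA, ATF6 is cut to release a transcription factor, and both raise chaperones and degradation factors of the ER. PERK and its relatives GCN2 (Eif2ak4), PKR and HRI (Eif2ak1) phosphorylate the translation factor eIF2, which lowers protein synthesis in general and favours translation of the Atf4 mRNA; this is the integrated stress response. ATF4, often with CHOP (Ddit3), turns on genes for amino acid supply, tRNA charging and redox balance, and Ppp1r15a, a subunit of the phosphatase that reverses eIF2 phosphorylation. In macrophages and microglia these pathways are known to meet Toll-like receptor signalling. Gene counts show mRNA levels only; eIF2 phosphorylation, ATF6 cleavage and Xbp1 splicing were not measured here.

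With LPS, 18 of the 40 genes were higher, 3 were lower and 19 were not called, at an adjusted p under 0.05 (edgeR quasi-likelihood test, Benjamini-Hochberg adjustment over all 16371 genes). Over all tested genes 23.6% were called, 12.7% higher and 10.9% lower. Among the 9435 genes that averaged at least 10 CPM, as these do, the shares were 17.3% and 14.5%. The median log2 fold change was 0.39 over the 40 genes and -0.015 over all genes tested. The ATF4/CHOP arm had the most one-sided change, with 7 of 11 genes higher, none lower and a median of 0.97. Among the 40 genes, 5 are enzymes of serine and one-carbon metabolism, which ATF4 is also known to control. They had no call in either direction and a median of 0.16. Of one-carbon enzymes outside the 40, Aldh1l2 was called higher and Shmt1 and Mthfd1 were called lower. Shmt1 and Mthfd1 were not both called when any 1 library other than LPS 3 was left out. The 14 ER chaperones and folding enzymes moved both ways, with 7 higher, 3 lower and a median of 0.39. In 20 genes every LPS library was above every Vehicle library and in 6 every LPS library was below, against 20.8% and 20.0% of all genes tested (40.8% in either direction).

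**Figure D1:**
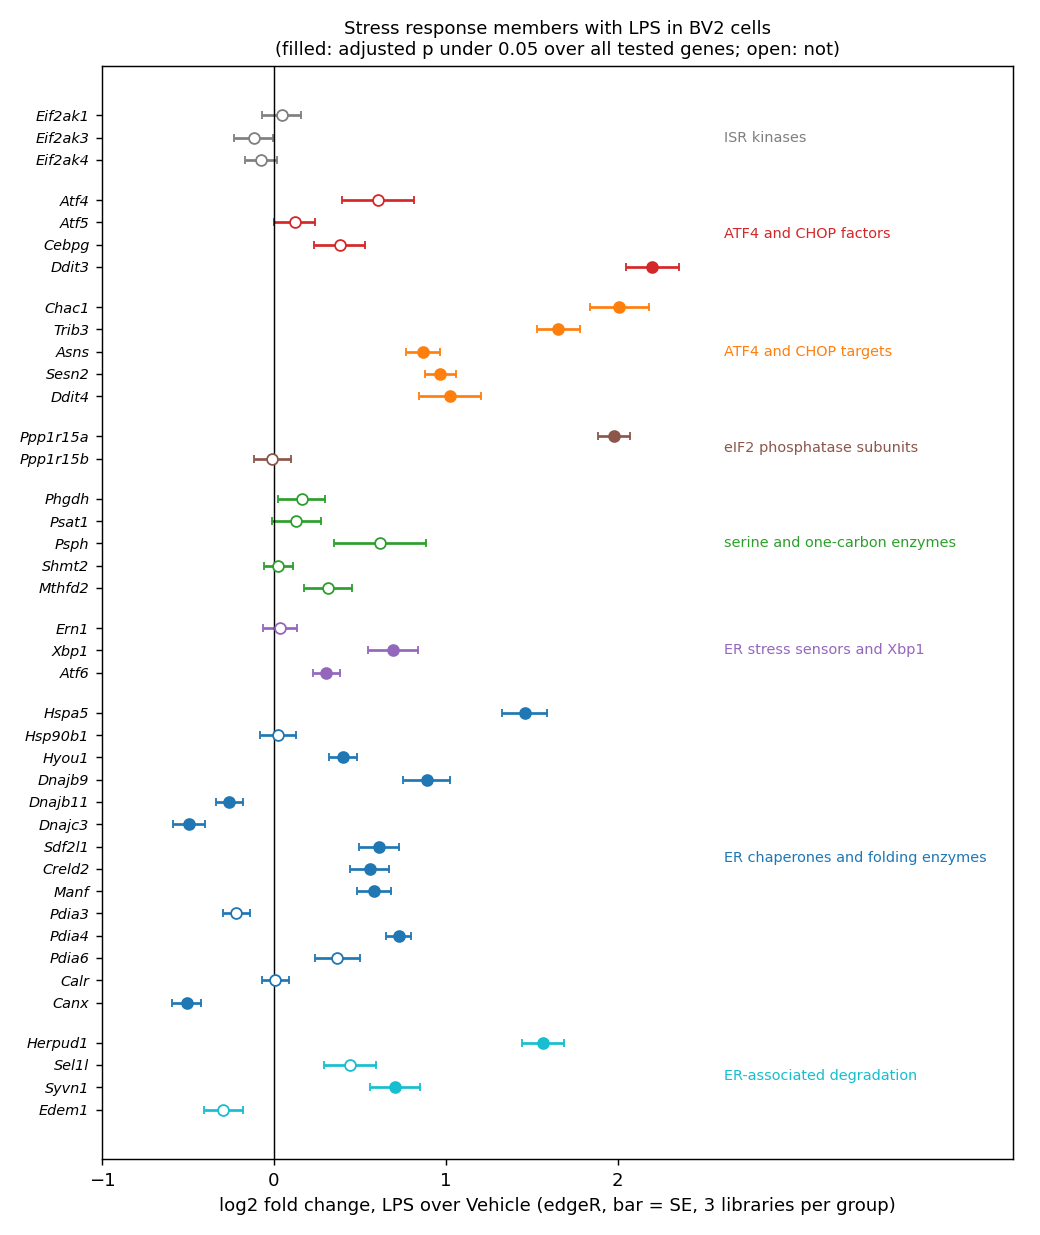
Log2 fold change (LPS over Vehicle, horizontal axis) of the 40 genes, grouped by role; points are edgeR estimates from 3 libraries a group and bars are 1 standard error. Filled and open points separate genes called at an adjusted p under 0.05 from the others. Ddit3 has the highest value, 2.20, and Canx the lowest, -0.51.

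The libraries held 45969690 to 59023474 counts and 18984 to 20615 genes above 0, and no library stood apart from its group in correlation of log2 counts. Levels below are CPM scaled by trimmed means (TMM), and each mean carries its SD over 3 libraries. The LPS response was checked with 5 genes: Tnf, Il1b, Il6, Nos2 and Ptgs2 were all called higher, by 3.40 to 7.97 on the log2 scale. Of 9 microglia and macrophage markers, all were detected. Cd68 averaged 959 CPM and Spi1 162 in Vehicle, whereas Aif1 (3.20) and Cx3cr1 (2.33) were low. None of the 9 was called higher with LPS and 2 were called lower (22.2%, against 10.9% lower over all genes tested). The log2 fold change of all 9 lay below 0, from -1.41 to -0.06 with a median of -0.44. Itgam, not called, read 42.9 CPM in LPS 1, 186 in LPS 2 and 249 in LPS 3, and 156 to 222 CPM in Vehicle. Csf1r, the receptor for the colony stimulating factor on which microglia depend, went from 232 ± 5.16 to 87.0 ± 0.752 CPM (log2 fold change -1.41 ± 0.08, adjusted p = 1.44e-05). Tyrobp, a signalling adaptor of microglia, was also called lower, a call lost without Vehicle 2, Vehicle 3 or LPS 2 (adjusted p up to 0.0813). In bulk samples, fewer cells of a type and less RNA per cell cannot be told apart. The summed levels of 5 markers each of neurons (3.62 to 9.14 CPM in Vehicle, 0.0801 to 9.17 with LPS), oligodendrocytes (5.26 to 6.96 and 1.12 to 7.78), fibroblasts (0.149 to 0.534 and 0.160 to 0.780, Lum at 0) and endothelial cells (1.99 to 3.99 and 2.56 to 4.02) were near 0, with no gene of these lists called (1 endothelial gene was called lower without LPS 3). The 5 astrocyte markers summed to 82.7 to 88.1 CPM and 109.9 to 129 CPM, nearly all of it Aldoc, a glycolytic enzyme, which was called higher by 0.53, while Gfap and Aqp4 averaged under 1 CPM in both groups. The part of these markers in the results below was not tested.

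None of the 3 eIF2 kinase genes among the 40 was called. HRI (Eif2ak1), the heme-regulated kinase that also responds to mitochondrial stress, ranged from 60.2 to 68.1 CPM in Vehicle and from 60.2 to 74.9 CPM with LPS, a log2 fold change of 0.05 ± 0.11 (standard error throughout; edgeR adjusted p = 0.81). For PERK (Eif2ak3), the kinase in the ER membrane, the ranges were 32.6 to 35.4 and 28.2 to 33.0 CPM (-0.12 ± 0.11, edgeR adjusted p = 0.506). GCN2 (Eif2ak4), which senses uncharged tRNA, had 50.1 to 52.7 and 46.2 to 50.1 CPM (-0.08 ± 0.09, edgeR adjusted p = 0.596). The groups overlapped for Eif2ak1 and Eif2ak3, and for Eif2ak4 the highest LPS library lay just under the lowest Vehicle library. On the opposite strand, Eif2ak1 shares 487 exonic bases with Aimp2 and 172 with Ankrd61. Aimp2 read 44.1 to 59.3 CPM in Vehicle and 45.0 to 64.1 CPM with LPS and was not called, so the level of Eif2ak1 is less certain. Ankrd61 was near 0, as was Gm43292, which shares 485 bases with Eif2ak3. PKR (Eif2ak2), the kinase that senses double-stranded RNA and is not one of the 40 genes, was not called either (99.7 to 115 CPM in Vehicle, 82.1 to 129 CPM with LPS, log2 fold change -0.16 ± 0.18, edgeR adjusted p = 0.568).

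Of the 4 transcription factor genes, Ddit3 alone was called. Ddit3 encodes CHOP, a C/EBP-family factor linked to cell death under prolonged ER stress. It stood at 28.5, 27.1 and 27.6 CPM in Vehicle 1 to 3 and at 140.3, 144 and 99.2 CPM in LPS 1 to 3. The Vehicle libraries lay within 2 CPM of each other and the lowest LPS library was more than 3 times as high as any of them. The fold change was 4.61 (log2 2.20 ± 0.15, edgeR adjusted p = 4.7e-05), the highest of the 40 genes. The Ddit3 gene shares 68 exonic bases with Mars, the methionyl-tRNA synthetase gene on the opposite strand, and the library kit is not stated to mark strand. Mars read 140.0 to 163 CPM in Vehicle and 122 to 179 CPM with LPS and was not called.

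Atf4 itself, the factor at the centre of the integrated stress response, measured 258, 428 and 246 CPM in Vehicle and 485, 463 and 470.5 CPM with LPS. All LPS libraries were above all Vehicle libraries, but Vehicle 2 stood near the LPS level and the other two Vehicle libraries near 250. The log2 fold change of 0.60 ± 0.21 did not pass (edgeR adjusted p = 0.0792). Without Vehicle 2 it was 0.90 (adjusted p = 0.0021), and with the DESeq2 Wald test on all libraries the adjusted p was 0.0212. Cebpg, a C/EBP factor that pairs with ATF4, had 54.0, 53.6 and 44.9 CPM in Vehicle and 75.1, 70.6 and 53.3 CPM with LPS. LPS 3 lay inside the Vehicle range while LPS 1 and LPS 2 were above it. Its log2 fold change was 0.38 ± 0.15 (edgeR adjusted p = 0.0974), and 0.51 without LPS 3 (adjusted p = 0.0113). Atf5, a relative of ATF4 that is translated by the same upstream reading frame mechanism, overlapped between groups, with 45.7 to 53.6 CPM in Vehicle and 47.9 to 58.9 CPM with LPS (0.12 ± 0.12, adjusted p = 0.514). Its annotation shares 82 exonic bases with Il4i1, which was near 0, and with Nup62, which was not called, so its own level is less certain.

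All 5 genes listed as targets of ATF4 and CHOP rose (median change 1.03 on the log2 scale). Chac1, an enzyme that breaks down glutathione, was at 6.22, 6.32 and 4.44 CPM in Vehicle and at 21.1, 24.3 and 23.4 CPM with LPS. This was the lowest gene of the 40 in Vehicle, and with LPS its 3 libraries lay close together, 4.02-fold higher (log2 2.01 ± 0.17, edgeR adjusted p = 0.000132). Trib3, a pseudokinase that feeds back on ATF4 and CHOP, had 45.1, 38.4 and 39.5 CPM in Vehicle and 138, 139 and 110.4 CPM with LPS. Its libraries separated by group, with LPS 3 the lowest of the LPS libraries, and the log2 fold change was 1.66 ± 0.12 (edgeR adjusted p = 6.6e-05). Asns, asparagine synthetase, showed 182, 197 and 210.3 CPM in Vehicle and 351, 392 and 332 CPM with LPS. It was 1.82-fold higher (log2 0.87 ± 0.10, adjusted p = 0.000524), the smallest rise of the 5 targets. Sesn2 and Ddit4 both encode stress-induced inhibitors of the mTORC1 growth pathway. Sesn2 had 46.3, 42.1 and 44.4 CPM in Vehicle and 83.9, 86.9 and 88.9 CPM with LPS (0.97 ± 0.09, edgeR adjusted p = 0.000219). Ddit4 had 21.8, 20.7 and 21.5 CPM in Vehicle and 48.4, 50.5 and 31.6 CPM with LPS (1.03 ± 0.18, edgeR adjusted p = 0.00454). For Sesn2 the LPS libraries were nearly equal, whereas for Ddit4 LPS 3 lay well under the other two and still above every Vehicle library.

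The promoters of these targets were searched for the letters TGATGNAA on either strand, the core of the C/EBP-ATF response element (CARE) that ATF4 binds with a C/EBP partner. RefSeq promoter windows (250 bases before to 50 after the start, build GRCm38.p6) were matched by symbol for 36 of the 40 genes, and those of Atf6, Hyou1, Manf and Ppp1r15b had no entry. The letters occurred in windows of 4 of the 36 genes and in 1304 of all 32851 windows (3.97%). The 4 genes were Chac1, Asns, Trib3 and the ER degradation gene Herpud1, and all 4 rose with LPS. They are shown because each carries the element and a rise, with the fixed letters in capitals, each in the direction of its gene (a capital run ending in CATCA is the element on the opposite strand):
Chac1, chr2:119351039-119351066, plus strand, 193 to 186 bases before the start: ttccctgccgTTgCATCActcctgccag
Asns, chr6:7693215-7693242, minus strand, 23 to 16 bases before the start: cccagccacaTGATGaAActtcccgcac
Trib3, chr2:152344029-152344056, minus strand, 15 to 22 bases after the start: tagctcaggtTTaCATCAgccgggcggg
Herpud1, chr8:94386307-94386334, plus strand, 112 to 105 bases before the start: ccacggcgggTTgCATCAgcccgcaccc
Ddit3, Sesn2, Ddit4 and Ppp1r15a, which also rose, do not hold these letters in the window. A match describes the letters only; binding was not measured.

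The pair of regulatory subunits of the eIF2 phosphatase differed. Ppp1r15a (GADD34), the stress-inducible subunit, read 39.4, 38.5 and 44.4 CPM in Vehicle and 167, 154 and 160.3 CPM with LPS. The LPS libraries were tightly grouped at about 4 times the Vehicle level, and the log2 fold change of 1.98 ± 0.10 had the lowest adjusted p of the 40 genes (edgeR adjusted p = 8e-06). Ppp1r15b (CReP), the constitutive subunit, had 141, 137 and 125 CPM in Vehicle and 142, 143 and 115 CPM with LPS, with overlapping groups (-0.01 ± 0.11, adjusted p = 0.966). Within each library, the log2 ratio of Ppp1r15a to Ppp1r15b was -1.84, -1.83 and -1.50 in Vehicle and 0.23, 0.11 and 0.48 with LPS. The inducible subunit therefore gave fewer counts than the constitutive one in every Vehicle library and more in every LPS library; these are counts not divided by transcript length.

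**Figure D2:**
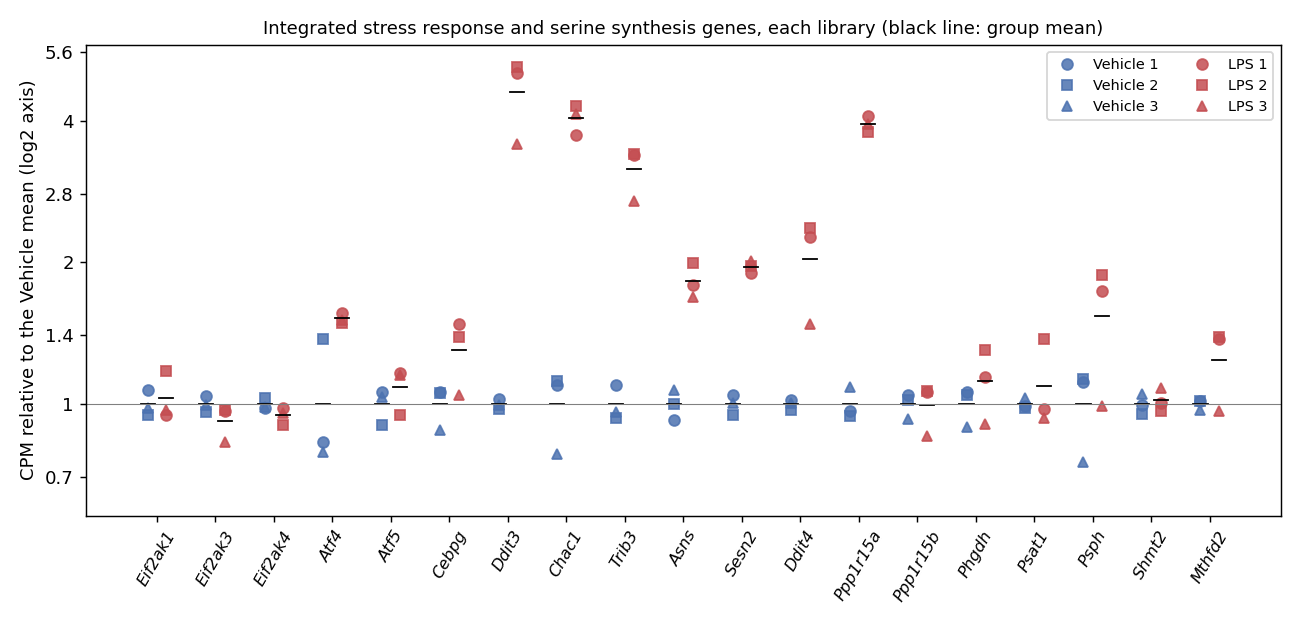
Level of each gene of the kinases, the ATF4/CHOP arm and the serine enzymes in each library, as CPM divided by the mean of the 3 Vehicle libraries, on a log2 axis. Marker shape gives the library number, colour the group, and the black line the group mean. Ddit3, Chac1 and Ppp1r15a stand about 4 times above Vehicle. The serine enzymes overlap between groups, with edgeR fold changes from 1.018 (Shmt2) to 1.535 (Psph) and LPS 3 the lowest LPS library in all but Shmt2.

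The serine and one-carbon enzymes were set beside the ATF4/CHOP arm, since ATF4 is known to drive both in many cell types. None of the 5 was called, and in none did the groups separate. Phgdh, the first enzyme of serine synthesis from glycolysis, had 829, 814 and 696 CPM in Vehicle and 891, 1017 and 708 CPM with LPS (log2 fold change 0.16 ± 0.14, edgeR adjusted p = 0.443). Psat1, the next enzyme, had 456, 452 and 475 CPM and 449.6, 634 and 429.9 CPM (0.13 ± 0.14, adjusted p = 0.559). LPS 2 was the highest library for both, and the remaining LPS libraries of Psat1 lay below every Vehicle library. Psph, the phosphatase of the last step, showed 50.2, 50.8 and 33.8 CPM in Vehicle and 78.0, 84.4 and 44.6 CPM with LPS. Here LPS 1 and LPS 2 were above Vehicle and LPS 3 was inside its range; the log2 fold change was 0.62 ± 0.27 (adjusted p = 0.15), and 0.85 without LPS 3 (adjusted p = 0.0115). On the opposite strand, Psph shares 452 exonic bases with Cct6a. Cct6a read 556 to 590 CPM in Vehicle and 459 to 499 CPM with LPS, far above Psph, and was not called. The level and the change of Psph are therefore less certain.

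Shmt2, which makes glycine and a one-carbon unit from serine in mitochondria, was at 447, 427 and 471 CPM in Vehicle and 452, 434 and 485 CPM with LPS (log2 fold change 0.03 ± 0.08, edgeR adjusted p = 0.856). Mthfd2, the mitochondrial folate enzyme after it, measured 215, 216 and 206 CPM in Vehicle and 293, 295 and 205 CPM with LPS. LPS 3 was at the Vehicle level for Mthfd2 and the other two LPS libraries were above it, so that the log2 fold change was 0.32 ± 0.14 (adjusted p = 0.14) and 0.46 without LPS 3 (adjusted p = 0.00198). The count of serine enzymes called higher was thus 0 in the main fit to all libraries and 2 without LPS 3. With all libraries and the library number as a block in the fit it was 1, Psph (edgeR adjusted p = 0.0106). Vehicle 3 was also the lowest Vehicle library for Phgdh, Psph and Mthfd2.

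Per library, the median log2 change from the Vehicle mean was 0.92, 1.00 and 0.76 in the 11 ATF4/CHOP genes for LPS 1 to 3. In the serine enzymes it was 0.20, 0.46 and -0.05, and in the ER chaperones 0.41, 0.52 and 0.25. In each LPS library the ATF4/CHOP median was the highest of the 3 and the serine median the lowest. No test was made between arms, whose genes are few and were picked by name. Asns and Psat1 are both amino acid synthesis genes known as ATF4 targets. Within a library the log2 ratio of Asns to Psat1 was -1.32, -1.20 and -1.18 in Vehicle. With LPS it was -0.36, -0.70 and -0.38, without overlap. This pair was picked by name, and ratios of Asns to the other serine enzymes were not set out. The log2 fold change was 0.87 for Asns, 0.13 for Psat1 and 0.62 for the serine enzyme Psph, so the pair does not stand for the whole arm. LPS 3 was the lowest LPS library in 10 of the 18 genes that rose (55.6%) and in 950 of all 2082 genes that rose (45.6%).

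Of the ER sensors and their factors, Xbp1 and Atf6 rose and Ern1 was not called. Ern1, which encodes the IRE1 nuclease, had 44.9 to 51.4 CPM in Vehicle and 48.6 to 51.6 CPM with LPS (log2 fold change 0.03 ± 0.10, edgeR adjusted p = 0.842). Xbp1, its mRNA substrate, was at 67.5, 55.0 and 77.8 CPM in Vehicle and 103, 123 and 97.5 CPM with LPS. Every LPS library exceeded every Vehicle library, by a log2 fold change of 0.69 ± 0.15 (adjusted p = 0.00999). Atf6 was at 176, 169 and 174 CPM in Vehicle and 209, 206 and 227 CPM with LPS. The rise was small, 1.24-fold (log2 0.31 ± 0.08, adjusted p = 0.0262). Its call was lost with total-count scaling (adjusted p = 0.106) and without any 1 Vehicle library or LPS 1 (adjusted p from 0.0657 to 0.109).

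Hspa5 (BiP), the main Hsp70 chaperone of the ER and the classical readout of the unfolded protein response, changed most among the 14 chaperones and folding enzymes. It had 1155, 1132 and 1051 CPM in Vehicle and 3381, 3342 and 2460 CPM with LPS. All LPS libraries were more than double any Vehicle library, with LPS 3 the lowest of them, and the fold change was 2.75 (log2 1.46 ± 0.13, edgeR adjusted p = 0.000167). Hsp90b1 (GRP94), the Hsp90 chaperone of the ER that is often raised together with BiP, had 611, 709 and 642 CPM in Vehicle and 591, 670.4 and 735 CPM with LPS. Its groups overlapped fully (0.02 ± 0.10, adjusted p = 0.892). Hsp90b1 shares 415 exonic bases with 1810014B01Rik on the opposite strand, which read 8.77 to 13.7 CPM in Vehicle and 10.9 to 13.1 CPM with LPS. The log2 ratio of Hspa5 to Hsp90b1 in the same library went from 0.92, 0.68 and 0.71 in Vehicle to 2.52, 2.32 and 1.74 with LPS.

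Among the Hsp70 partners, Dnajb9 (ERdj4), a J-domain protein of IRE1 control and ER degradation, rose from 18.7, 22.2 and 25.0 CPM to 36.7, 42.6 and 42.3 CPM (log2 0.89 ± 0.14, edgeR adjusted p = 0.00255). Hyou1 (GRP170), a nucleotide exchange factor of BiP, rose from 259.8, 259.6 and 245 CPM to 329, 356 and 325 CPM (0.40 ± 0.08, adjusted p = 0.00801). These went the same way as Hspa5, without overlap between groups. Dnajc3 (p58IPK), a J-domain co-chaperone also known as an inhibitor of PERK, fell from 73.4, 72.4 and 65.0 CPM to 50.6, 49.0 and 50.4 CPM (-0.49 ± 0.09, adjusted p = 0.00665). Dnajb11 (ERdj3), a BiP co-chaperone that can be secreted, fell from 142, 139 and 144 CPM to 120.0, 122 and 114 CPM (-0.26 ± 0.08, adjusted p = 0.0467). The J-domain partners of BiP thus moved in both directions. The call on Dnajb11 was lost under several alternatives, among them each fit that left out 1 library other than LPS 3 (adjusted p up to 0.134).

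Sdf2l1, Creld2 and Manf, small ER proteins known as targets of ATF6 or of general ER stress, rose by similar amounts. Sdf2l1, a partner of J-domain proteins, went from 78.7, 75.0 and 70.2 CPM to 125, 120.1 and 96.8 CPM (log2 0.61 ± 0.12, edgeR adjusted p = 0.00657). Creld2, a disulfide isomerase-like protein, went from 60.5, 57.7 and 54.7 CPM to 89.6, 92.3 and 72.6 CPM (0.56 ± 0.12, adjusted p = 0.00942). Manf, a BiP-binding protein that is released from stressed cells, went from 183, 176 and 178 CPM to 297, 271 and 236 CPM (0.58 ± 0.10, adjusted p = 0.00391). For all of them LPS 3 was the lowest LPS library and still above each Vehicle library. Manf shares 146 exonic bases with Dcaf1 on the opposite strand, which was called higher by 0.40.

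The protein disulfide isomerases split. Pdia4 (ERp72) rose from 145, 139 and 143 CPM to 233.9, 233.8 and 238 CPM, with nearly no spread in either group (log2 0.73 ± 0.08, edgeR adjusted p = 0.000366). Pdia6, which attenuates the sensors, had 349.8, 322 and 296 CPM in Vehicle and 436, 476 and 339 CPM with LPS, with LPS 3 inside the Vehicle range (0.37 ± 0.13, adjusted p = 0.0782, and 0.49 without LPS 3, adjusted p = 0.00439). Pdia3 (ERp57), the isomerase that works with calnexin and calreticulin on glycoproteins, had 682, 646 and 635 CPM in Vehicle and 583, 542 and 562 CPM with LPS. All its LPS libraries lay under all Vehicle libraries, but the log2 fold change of -0.22 ± 0.08 did not pass (adjusted p = 0.0768); it passed with total-count scaling, a stricter filter or DESeq2 (adjusted p = 0.0255, 0.0495 and 0.0266). Canx, the membrane lectin calnexin, fell from 531, 569.7 and 503 CPM to 389, 359 and 381 CPM, 1.42-fold lower (-0.51 ± 0.08, adjusted p = 0.00338). Calr, its soluble relative calreticulin, had 1330, 1265 and 1290 CPM in Vehicle and 1231, 1334 and 1345 CPM with LPS (0.01 ± 0.08, adjusted p = 0.948). Of the glycoprotein folding trio, Canx fell, while for Pdia3 and Calr the test was not passed.

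**Figure D3:**
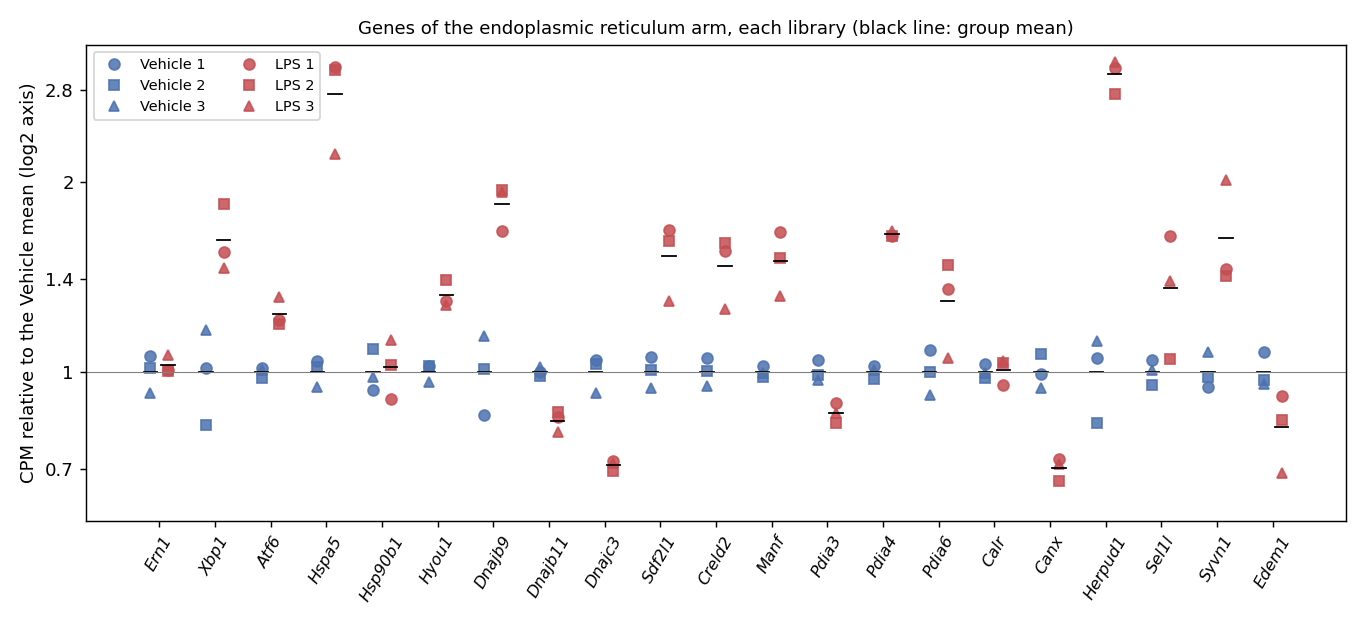
Level of each gene of the ER sensors, chaperones and degradation factors in each library, as CPM divided by the mean of the 3 Vehicle libraries, on a log2 axis. Marker shape gives the library number, colour the group, and the black line the group mean; Hspa5 and Herpud1 lie highest, and Dnajc3 and Canx lie below 1 in all 3 LPS libraries.

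The promoter windows of the 36 genes were also searched for elements of the ER stress response. The ER stress response element (ERSE), which ATF6 binds together with NF-Y, was searched as CCAAT followed after 9 bases by CCACG, on either strand. It occurred in windows of 8 of the 36 genes and in 39 of all 32851 windows (0.119%). Of the 8, Hspa5, Creld2 and Syvn1 rose, Canx and Dnajc3 fell, and Calr, Hsp90b1 and Pdia6 were not called. Hsp90b1 held 2 matches. A shorter form, ERSE-II, searched as ATTGG followed after 1 base by CCACG, occurred in 12 windows in all (0.0365%), those of Herpud1, which rose, and Dnajb11, which fell, among them. Thus 10 genes held either form, of which 4 rose, 3 fell and 3 were not called, and all 3 genes that fell were in this set. Of the chaperones and folding enzymes that rose, Hspa5 and Creld2 held a form. Dnajb9, Sdf2l1 and Pdia4 did not, and Hyou1 and Manf had no window. Whether these elements have a part in the changes was not tested. The letters TGACGTGG of the unfolded protein response element (UPRE), bound by XBP1 and ATF6, were in 222 windows (0.676%) and in none of the 36 genes. To set genes that rose, fell or were not called side by side, 5 windows with ERSE and the ERSE-II window of Herpud1 are printed in the direction of the gene, with the element's letters in capitals (CGTGG before ATTGG is the element on the opposite strand):
Hspa5 (rose), chr2:34772015-34772053, plus strand, 65 to 47 bases before the start: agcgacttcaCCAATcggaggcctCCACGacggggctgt
Creld2 (rose), chr15:88819510-88819548, plus strand, 126 to 108 bases before the start: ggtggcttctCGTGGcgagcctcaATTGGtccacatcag
Canx (fell), chr11:50325790-50325828, minus strand, 145 to 127 bases before the start: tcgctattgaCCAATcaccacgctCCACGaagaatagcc
Dnajc3 (fell), chr14:118937817-118937855, plus strand, 105 to 87 bases before the start: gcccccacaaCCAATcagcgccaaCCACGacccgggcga
Calr (not called), chr8:84847065-84847103, minus strand, 162 to 144 bases before the start: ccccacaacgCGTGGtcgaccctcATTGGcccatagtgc
Herpud1 (rose; ERSE-II), chr8:94386367-94386397, plus strand, 52 to 42 bases before the start: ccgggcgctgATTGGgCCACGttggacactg
Herpud1 was the only one of the 36 genes whose window held both a CARE and an ER stress element in these searches.

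The make-up of the chaperone mRNA pool was set out per length, as CPM per kb of the longest annotated transcript. Per length, Calr was the highest of the 40 genes in Vehicle (1397 when CPM per kb is scaled as TPM), followed by Phgdh (970.3), Hspa5 (714), Pdia3 (556) and Hsp90b1 (478), and Chac1 was the lowest (8.15). With LPS, Hspa5 was the highest (1737) and Calr next (1252). Hspa5 made up 15.5%, 15.4% and 14.8% of the summed level of the 14 chaperone genes in Vehicle and 33.9%, 32.9% and 27.4% with LPS, a mean of 15.2% ± 0.371 against 31.4% ± 3.48 (SD, n = 3 libraries each). The share of Calr went from 29.8% ± 0.81 to 22.7% ± 2.29, that of Pdia3 from 11.9% ± 0.224 to 7.71% ± 0.619 and that of Canx from 6.28% ± 0.325 to 3.34% ± 0.306. The shares sum to a whole, so a gene such as Calr, whose level was not called, had a lower share. Summed over the 14 genes, the level went from 1988 ± 51.2 to 2644 ± 174 CPM per kb, a ratio of 1.33. Without Hspa5 it went from 1685 ± 36.4 to 1810 ± 43.8 CPM per kb, a ratio of 1.07, so that most of the added chaperone mRNA was Hspa5.

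**Figure D4:**
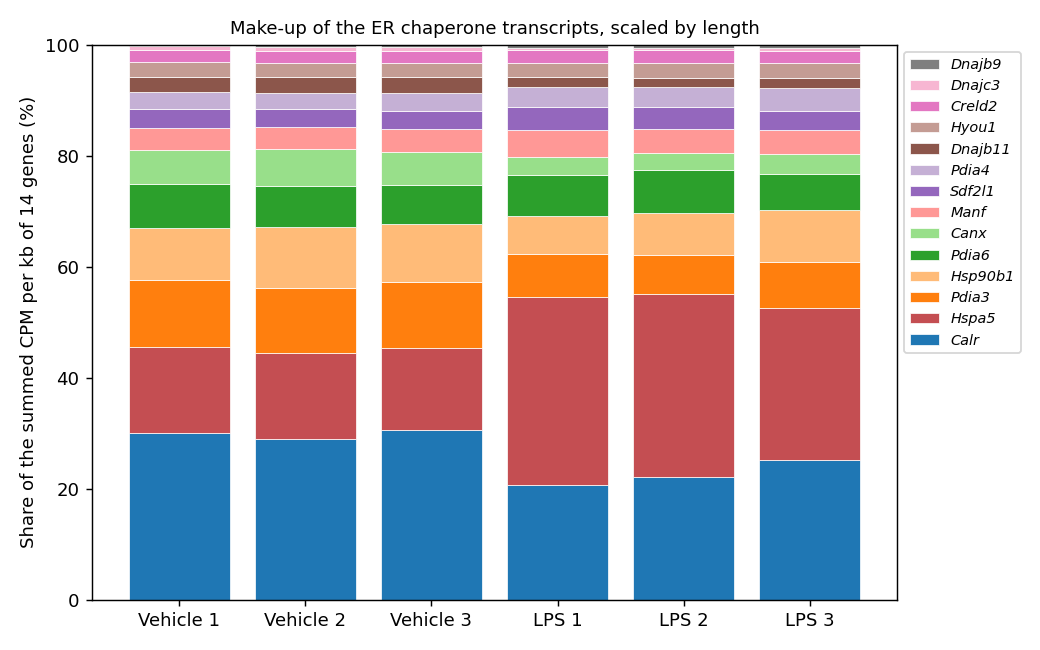
Share of each of the 14 ER chaperone and folding genes in their summed level (CPM per kb of the longest annotated transcript, vertical axis in percent) for each of the 6 libraries, as stacked bars. The Hspa5 share is 14.8% to 15.5% in the Vehicle libraries and 27.4% to 33.9% in the LPS libraries.

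In ER-associated degradation, which returns misfolded proteins to the cytosol for the proteasome, Herpud1 and Syvn1 rose and Sel1l and Edem1 were not called. Herpud1, a membrane scaffold of the degradation complex, was at 60.5, 47.6 and 64.3 CPM in Vehicle and 174, 158 and 178 CPM with LPS. It was 2.96-fold higher (log2 1.57 ± 0.12, edgeR adjusted p = 9.6e-05), the largest change of the ER genes. Syvn1 (HRD1), the ubiquitin ligase of the complex, was at 51.5, 53.5 and 58.4 CPM in Vehicle and 79.2, 77.2 and 109.7 CPM with LPS, with LPS 3 the highest (0.70 ± 0.15, adjusted p = 0.00999). It shares 91 exonic bases with Mrpl49, which was called lower (log2 fold change -0.39). Sel1l, the partner of HRD1, had 224, 205 and 216 CPM in Vehicle and 353, 225 and 299 CPM with LPS; the groups did not overlap, but LPS 2 lay just above Vehicle (0.44 ± 0.15, adjusted p = 0.0689, and 0.60 without LPS 2, adjusted p = 0.00934). DESeq2 called it (adjusted p = 0.0457). Edem1, a mannosidase-like protein that picks glycoproteins for degradation, had 470.3, 424 and 418 CPM in Vehicle and 401, 367 and 302 CPM with LPS. All its LPS libraries were lower, without a call (-0.29 ± 0.12, adjusted p = 0.103); with total-count scaling the adjusted p was 0.0349.

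Other genes of the pathway were taken from lists chosen by known role. Of 10 amino acid transporters, 3 were higher, 1 was lower and the median log2 fold change was 0.15. Slc7a11, the cystine transporter of glutathione synthesis, rose from 90.8 ± 1.38 to 596 ± 80.5 CPM (log2 2.72 ± 0.12, edgeR adjusted p = 3.98e-06), which exceeds the change of any of the 40 genes. Its heavy chain partner Slc3a2 rose by 1.01 ± 0.09 and the glycine transporter Slc6a9 by 1.02 ± 0.11. The glutamine transporter Slc1a5 was lower (-0.40 ± 0.08), a call lost without Vehicle 1 (adjusted p = 0.0531). Among 20 cytosolic tRNA synthetases, which load amino acids onto tRNAs, 11 were higher and none lower, with a median of 0.36. Calls made up 55.0% of the synthetases, all of them higher. Over all genes tested 12.7% were higher, and 17.3% of those averaging at least 10 CPM. The largest rises were those of Sars (1.08 ± 0.11), Aars (0.78 ± 0.09), Cars (0.69 ± 0.09) and Nars (0.64 ± 0.08). The count was 7 with total-count scaling and without Vehicle 1, Vehicle 2 or LPS 2.

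Of 19 other genes of the ATF4 programme, 17 were tested, of which 9 were higher and 3 lower, with a median of 0.49. Calls made up 70.6% of those tested, against 23.6% of all genes tested and 31.8% of those averaging at least 10 CPM. Leaving out 1 library, 7 to 8 were higher and 2 to 3 lower. The stress cytokine Gdf15 (log2 2.52 ± 0.38), the transcription factor Atf3 (2.01 ± 0.22) and the stress regulator Nupr1 (1.38 ± 0.20) rose, whereas Sesn1, a p53-regulated relative of Sesn2, fell (-0.64 ± 0.12). The one-carbon enzymes of this list went both ways. Aldh1l2 was called higher (1.18 ± 0.11, edgeR adjusted p = 0.000234). Shmt1 (-0.40 ± 0.08, adjusted p = 0.00747) and Mthfd1 (-0.29 ± 0.07, adjusted p = 0.0237) were called lower, and Mthfd1l was not called (-0.21 ± 0.08, adjusted p = 0.103). Without any 1 library other than LPS 3, the list had 2 genes lower. Sesn1 kept its call in each of these fits, so Shmt1 and Mthfd1 were not both called in them. A list of 10 genes around eIF2 held 8 subunits of eIF2 and its exchange factor eIF2B, the kinase gene Eif2ak2 and the separate initiation factor gene Eif2a. Of the 10, 1 was higher and 2 were lower, with a median of 0.07, and the genes called were all subunits. This share of 30.0% lies near the 23.6% called over all genes tested and the 31.8% of genes averaging at least 10 CPM. Eif2b2 rose by 0.59 ± 0.10, Eif2s3x fell by 0.43 on the log2 scale and Eif2s1, which carries the phosphorylated serine, was lower (-0.35 ± 0.08), with that call lost without any 1 Vehicle library (adjusted p up to 0.0582).

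Further lists of ER genes had medians between -0.01 and 0.12. Calls made up 31.6% of the folding list, 18.8% of the degradation list, 25.0% of the translocation list and 20.0% of the transducers tested. These shares lie near the background, 23.6% of all genes tested and 31.8% of those averaging at least 10 CPM. Of 19 other folding and oxidation genes, 3 were higher and 3 lower, with a median of 0.02. The oxidase Ero1a rose (0.73 ± 0.10), and the thioredoxin-fold chaperone Erp29 (-0.94 ± 0.10) and the glycoprotein folding sensor Uggt1 (-0.45 ± 0.08) fell. Sil1, an exchange factor of BiP, was called higher (0.69 ± 0.19) but lost the call in each leave-one-out fit that dropped a library other than LPS 3 (adjusted p up to 0.119); the count of higher genes was 1 without Vehicle 1, Vehicle 2, LPS 1 or LPS 2, and 5 without LPS 3. Of 16 tested ER degradation genes beyond the 4 above, 3 were higher and none lower, with a median of 0.12: the mannosidase Edem2 (0.85 ± 0.10), Ubxn4 (0.44 ± 0.08) and Faf2 (0.40 ± 0.08); 5 were higher without LPS 3, and 1 was lower without LPS 2. Of 20 genes of ER translocation and glycosylation, 2 were higher and 3 lower, with a median of -0.01; 1 was higher when any library other than LPS 3 was left out, and 4 were higher and 5 lower without LPS 3. The translocon-associated subunits Ssr4 (0.47 ± 0.10) and Ssr1 (-0.45 ± 0.08) went in opposite directions. Sec11a of the signal peptidase was lower (-0.63 ± 0.14; adjusted p = 0.0525 without Vehicle 2), and the oligosaccharyltransferase subunit Rpn2 was lower (-0.36 ± 0.09; adjusted p up to 0.0839 without Vehicle 1, Vehicle 3 or LPS 1). Of 10 tested other ER stress transducers, Tmbim6, a negative regulator of IRE1, rose (0.39 ± 0.08), and Mbtps2, the site-2 protease that cuts ATF6, was called lower (-0.31 ± 0.09) but lost the call under 7 of 16 alternatives (adjusted p up to 0.123); 2 of these genes were higher without LPS 2.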

How the data were processed

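Poly(A) RNA from 3 Vehicle and 3 LPS samples was sequenced on an Illumina NovaSeq, per the labels' protocols. The submitters' processing notes name Bowtie2 2.2.8, HISAT2, StringTie 1.3.1 and DESeq2; for build, annotation and counting step, the labels give nothing (not given in the sources used here). The values are treated as estimated counts: the authors deposited whole numbers, but low values pile up at steps of 3.68 to 3.74, so 1 unit is not 1 read, which a count model does not know. Symbols and transcript lengths came from GENCODE M21 (55141 of 55401 rows matched). A second, near-empty Ddit3 row was left out.

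Genes were filtered with filterByExpr (minimum count 10, total 15), scaled by TMM and tested with edgeR 4.0.16 in R 4.3.3 (quasi-likelihood, robust). Genes were called at 0.05 after Benjamini-Hochberg adjustment across every gene tested. Promoters and coordinates are RefSeq's (GRCm38.p6); no coordinate comes from the counts. The 40 genes and the lists were chosen with earlier results of these data known; 1 marker gene is not reported here. All 40 were named. Of each list, up to 4 called genes with the largest change were named, at least 1 each way. Other one-carbon and apoptosis genes of the lists were named beside these. Scripts were tested on 1 simulated data set, the only draw made, and in it false calls exceeded the nominal rate. Alternatives were other scalings and filters, DESeq2 1.42.0, limma voom (limma 3.58.1), counts divided by their step, a replicate block and leaving out each library; the older edgeR test was added after seeing the data.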

Additional observations from a re-analysis of the deposited data

How the results depend on the processing

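Under 16 alternatives, 19 of the 21 called genes kept their call in all (17 higher, 2 lower); Atf6 and Dnajb11 did not. Of the 19 others, 11 were never called and 8 were in at least 1 alternative. With total counts only, 42.2% of all called genes were higher, against 53.9%, and all genes had a median of -0.104 on the log2 scale; 17 of the 40 genes were then higher and 5 lower. Leaving out 1 library, 1291 to 2450 of all genes were called higher and 1053 to 2085 lower, and 0 to 2 serine enzymes were called higher. Same-numbered libraries deviated together weakly (r = 0.073, 0.045 and 0.058), and each correlated best with its own number. Between unlike numbers r ran from -0.062 to 0.008. The labels state no batch, so the main fit left the numbers out, and whether they mark shared batches was not tested. With the replicate block 22 of the 40 genes were higher and 2 lower, and 3816 of all genes were called. In that fit 1 serine enzyme, Psph, was called higher (edgeR adjusted p = 0.0106). The block also added calls on Cebpg, Pdia6 and Sel1l (adjusted p = 0.0399, 0.0443 and 0.0425) and ended that on Dnajb11 (adjusted p = 0.0793); it changed no other call among the 40 genes. Genes that were not called and lay near 0 changed sign. With total counts these were Eif2ak1 (-0.0442), Shmt2 (-0.0604), Ern1 (-0.0536), Hsp90b1 (-0.0624) and Calr (-0.0786); with upper quartile scaling Shmt2 (-0.0045), Hsp90b1 (-0.0059) and Calr (-0.0218). Calr was also below 0 with DESeq2 size factors (-0.0032), the DESeq2 test (-0.0032) and a stricter filter (-0.0078). Leaving out 1 library, the log2 fold change ran from -0.0597 to 0.101 for Eif2ak1, -0.0663 to 0.0837 for Ppp1r15b, -0.0661 to 0.229 for Psat1, -0.0233 to 0.063 for Shmt2, -0.0243 to 0.0796 for Ern1, -0.0574 to 0.0944 for Hsp90b1 and -0.0187 to 0.0400 for Calr. The cause of these changes was not tested. The unit of the counts limits what depth can say of weak genes; all 40 genes lie well above it.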

Other observations

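Genes of neighbouring stress pathways were read with the same test. Of 8 tested apoptosis genes linked to ER stress, 4 were higher and none lower, with a median log2 fold change of 0.61. Bbc3 (PUMA), a death-promoting gene that CHOP and p53 are known to raise, went from 11.2 to 27.7 CPM (1.31 ± 0.20, edgeR adjusted p = 0.00216). The death-inhibiting genes Bcl2l1 (1.19 ± 0.10) and Mcl1 (0.91 ± 0.14) rose as well. Bak1 was called higher (0.72 ± 0.19), a call lost when any 1 library other than LPS 3 was left out (adjusted p up to 0.102). The genes called higher thus included ones of opposite known function. Of the genes not called, Pmaip1 (-1.01 ± 0.44, edgeR adjusted p = 0.163) and Bax (-0.165 ± 0.115, adjusted p = 0.348) lay below 0. Bcl2l11 (0.06 ± 0.19, adjusted p = 0.865) and Bcl2 (0.49 ± 0.16, adjusted p = 0.0545) lay above 0.

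Of 11 tested cytosolic heat shock genes, none was higher and 1 was lower, with a median of 0.06 (2 were lower without Vehicle 3). These counts lie near the background of 12.7% higher and 10.9% lower over all genes tested. That gene, Hspa8, the constitutive cytosolic Hsp70, went from 2553 to 1845 CPM (-0.47 ± 0.10, edgeR adjusted p = 0.0125). It was not called when Vehicle 1 or Vehicle 2 was left out (adjusted p up to 0.0601). Of 12 mitochondrial chaperones and proteases, 3 were higher and 1 lower, with a median of 0.08. Calls made up 33.3% of this list, near the 31.8% of all genes averaging at least 10 CPM. Only 1 gene was higher without Vehicle 2, Vehicle 3, LPS 1 or LPS 2. The protease Lonp1 rose (0.71 ± 0.10) and the chaperonin Hspd1 fell (-0.51 ± 0.09), both under all 16 alternatives, whereas Clpp (0.40 ± 0.10) and Dnaja3 (0.31 ± 0.09) lost their calls under several, with adjusted p up to 0.0801 and 0.123.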
